A study of Rattus norvegicus with 180 samples.

Results

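The miRNAs rno-miR-203, rno-miR-205 and rno-miR-31 were taken by name from a custom rat miRNA microarray as 3 of its 717 miRNAs, and their signals were followed over 55 organs of the rat. They had been grouped as miRNAs of squamous epithelium, the layered lining of skin, tongue, esophagus and anterior stomach (the forestomach of the rat). All animals were 10-week-old male Sprague-Dawley rats with no drug treatment. The 165 arrays of the main set came from 3 rats perfused with saline to wash blood out of the vessels, numbered 4, 5 and 6, with 1 array per organ and rat. A further 15 arrays came from 3 rats that were not perfused, numbered 1, 2 and 3, from which cardiac atrium, interventricular septum, kidney, liver and lung were taken. Duodenum, jejunum, ileum, cecum, colon and rectum were sampled as mucosal epithelium scraped from the wall, and liver as its left lateral lobe, per the study's organ list. No such scraping is listed for skin, tongue, esophagus or either part of the stomach. All samples mix cell types, so fewer cells of a type and less RNA per cell cannot be told apart in any value below. Replicates were rats throughout (n = 3 per organ and sampling condition), and the number of arrays limits the precision.

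A miRNA pairs with target mRNAs mainly through its seed, bases 2 to 8 from its 5′ end, and lowers their translation and stability. miR-203 is known from epidermis, where it rises as keratinocytes leave the basal layer and represses the basal-layer transcription factor p63. miR-205 is known from the basal cells of stratified and glandular epithelia, where it represses the E-cadherin repressors Zeb1 and Zeb2. miR-31 has been studied in wounded epidermis, hair follicles and intestinal crypts.

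The mature sequences below are shown because the seed tells which transcripts each miRNA can pair with, and because the 3 seeds, printed in capitals, differ from each other. They were read from RefSeq on the GRCr8 build. The array's rno-miR-203 was matched to rno-miR-203a-3p and its rno-miR-31 to rno-miR-31a-5p, each taken to be the main (guide) strand of its hairpin. The sequences, seeds and arms given for both rest on that match.
rno-miR-203a-3p: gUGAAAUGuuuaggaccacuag
rno-miR-205: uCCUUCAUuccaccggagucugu
rno-miR-31a-5p: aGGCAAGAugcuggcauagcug
The first lies at chr6:137020756-137020777 on the plus strand, the second at chr13:107564588-107564610 on the minus strand and the last at chr5:108714906-108714927 on the minus strand. None of the other mature rat miRNAs among the 693 names of the RefSeq table used shared any of these seeds, and that table is not complete. The partner strands of the same hairpins, which the array also measured for miR-203 and miR-31 as rno-miR-203* and rno-miR-31*, carry different seeds.
rno-miR-203a-5p: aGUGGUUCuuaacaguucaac
rno-miR-31a-3p: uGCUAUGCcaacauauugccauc
The hairpins are printed next with the mature strands in capitals, to show from which arm each measured strand comes.
Mir203: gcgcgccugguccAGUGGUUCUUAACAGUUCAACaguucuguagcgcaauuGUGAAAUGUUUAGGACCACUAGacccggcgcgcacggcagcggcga
Mir205: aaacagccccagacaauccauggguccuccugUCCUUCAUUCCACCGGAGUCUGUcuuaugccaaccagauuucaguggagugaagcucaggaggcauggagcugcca
Mir31: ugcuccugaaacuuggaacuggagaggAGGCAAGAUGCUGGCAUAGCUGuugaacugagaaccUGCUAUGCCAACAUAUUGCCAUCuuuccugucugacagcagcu
miR-203 is the 3′ arm of its hairpin, while miR-205 and miR-31 are the 5′ arms of theirs. The hairpins span 97 bases at chr6:137020705-137020801, 108 bases at chr13:107564535-107564642 and 106 bases at chr5:108714849-108714954.

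Signals are given as scaled intensity in arbitrary units, with a floor of 10.8 below which values have no order, and levels of different miRNAs are not set against each other. The number of miRNAs detected on an array ran from 86 to 244, and no miRNA spot was saturated. Detection required that more than 50% of a miRNA's spots stood well above background. Marker miRNAs followed the organ labels: miR-122 of hepatocytes was highest in liver, miR-216a and miR-217 of pancreatic acinar cells in pancreas, and the muscle list (miR-1, miR-133a, miR-133b and miR-206) in femoris muscle. Each member was measured by 2 probe sequences, whose signals correlated at 0.998 over 98 arrays for miR-203, 0.999 over 78 arrays for miR-205 and 0.998 over 102 arrays for miR-31.

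miR-203 was detected on all 3 arrays of 25 perfused organs, on some arrays of 11 and on none of 19. It had its highest signal in esophagus, at 4725 in rat 4, 2012 in rat 5 and 7927 in rat 6. Anterior stomach followed at 2081, 1930 and 2404 in the same order of rats. The Harderian gland, a lipid-secreting gland of the orbit, measured 1894, 2151 and 2215. Skin reached 1273, 1865 and 2719, and tongue 1509, 1637 and 1255. The small intestine lay among these organs, but its samples were scraped mucosa, so the share of epithelium in them and in the squamous-lined organs cannot be told apart from the level per cell. Jejunum measured 2074, 1960 and 1475, duodenum 2325, 1816 and 1382, and ileum 1529, 1717 and 1763. The ranges of neighboring organs met from esophagus down to tongue, 8th in order, so neighbors in this upper group could not be ordered beyond the spread between rats. Farther apart in the order, esophagus, anterior stomach and Harderian gland lay above ileum and tongue without overlap.

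The upper group of miR-203 was set apart from the rest by a gap. The lowest tongue value of 1255 stood above the highest rectum value, the rats of that organ measuring 938, 866 and 824. Cecum at 504, 830 and 650, colon at 723, 641 and 407, and eyeball at 438, 532 and 352 formed the next group. Brown adipose tissue (248, 219 and 228) and thyroid gland (192, 166 and 113) lay below it without overlap. Urinary bladder reached 51.5, 135 and 110, which met the lowest thyroid value, and glandular stomach 69.4, 99.0 and 60.3. Trachea, at 23.1, 16.1 and 21.6, was close to the floor. Of the salivary glands, mandibular gland measured 61.6, 70.2 and 34.7, parotid gland 37.6, 32.3 and 32.5, and sublingual gland 28.1, 30.5 and 25.2. miR-203 was detected on 2, 1 and 2 arrays of these glands. It was not detected in pancreas, adrenal gland, pituitary gland, spleen or skeletal muscle.

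miR-205 was detected on all 3 arrays of 21 perfused organs, on some arrays of 8 and on none of 26. Eyeball, which includes the stratified epithelium of the cornea, ranked first at 905, 1109 and 1287. Skin measured 595, 833 and 1064, and esophagus 842, 356 and 1196. Glandular and urogenital organs followed, with ranges that met that of tongue. The other lobes of the prostate measured 538, 512 and 405, epididymis 550, 425 and 451, and urinary bladder 436, 406 and 493. Tongue reached 444, 602 and 318, the Harderian gland 324, 333 and 367, and anterior stomach 352, 281 and 382. From eyeball to colon, the first 19 organs, every range met that of the next organ, so miR-205 fell along a slope with no step.

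The salivary glands, in each of which miR-203 was detected on 1 or 2 of 3 arrays, lay well above the floor for miR-205. Sublingual gland measured 314, 302 and 205, mandibular gland 182, 177 and 146, and parotid gland 138, 153 and 131. Thyroid gland reached 304, 272 and 216, trachea 235, 236 and 151, and thymus, whose stroma holds keratin-positive epithelial cells, 214, 147 and 122. In contrast to miR-203, miR-205 was not detected on any array of duodenum, jejunum or ileum. Rectum (137, 93.5 and 104) and colon (80.7, 102 and 95.9) carried it, and below colon the order broke before glandular stomach (56.1, 64.1 and 48.5). In cervical lymph node it was detected in rat 4 alone, at 57.5 against the floor of 10.8 in rats 5 and 6.

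miR-31 was detected on all 3 arrays of 28 perfused organs, on some arrays of 6 and on none of 21, and the squamous-lined organs were not the highest in its order of organs. It ranked highest in duodenum at 1452, 947 and 808, glandular stomach at 804, 808 and 1159, ileum at 721, 720 and 851, and jejunum at 890, 728 and 578. Of these, the 3 parts of the small intestine were scraped mucosa, unlike the squamous-lined organs. A gap separated these 4 organs from liver (363, 346 and 377), abdominal aorta (387, 296 and 271) and eyeball (301, 240 and 331). The squamous-lined organs came lower still, with skin ninth, esophagus 12th, tongue 14th and anterior stomach 16th. Skin measured 208, 102 and 61.2, esophagus 111, 26.7 and 121, tongue 43.9, 95.6 and 36.1, and anterior stomach 50.3, 41.0 and 51.7. The ranges of skin, esophagus and tongue met those of abdominal vein (184, 93.4 and 114), rectum (88.2, 87.5 and 115) and pituitary gland (61.3, 79.3 and 71.2). Urinary bladder (27.9, 35.4 and 29.8) and trachea (19.1, 10.8 and 16.8) were close to the floor. Low signals were also detected on all 3 arrays of hippocampus, cerebral cortex, medulla oblongata and the cervical and pectoral spinal cord. miR-31 was not detected in mandibular gland, parotid gland, pancreas or adrenal gland.

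**Figure D1:**
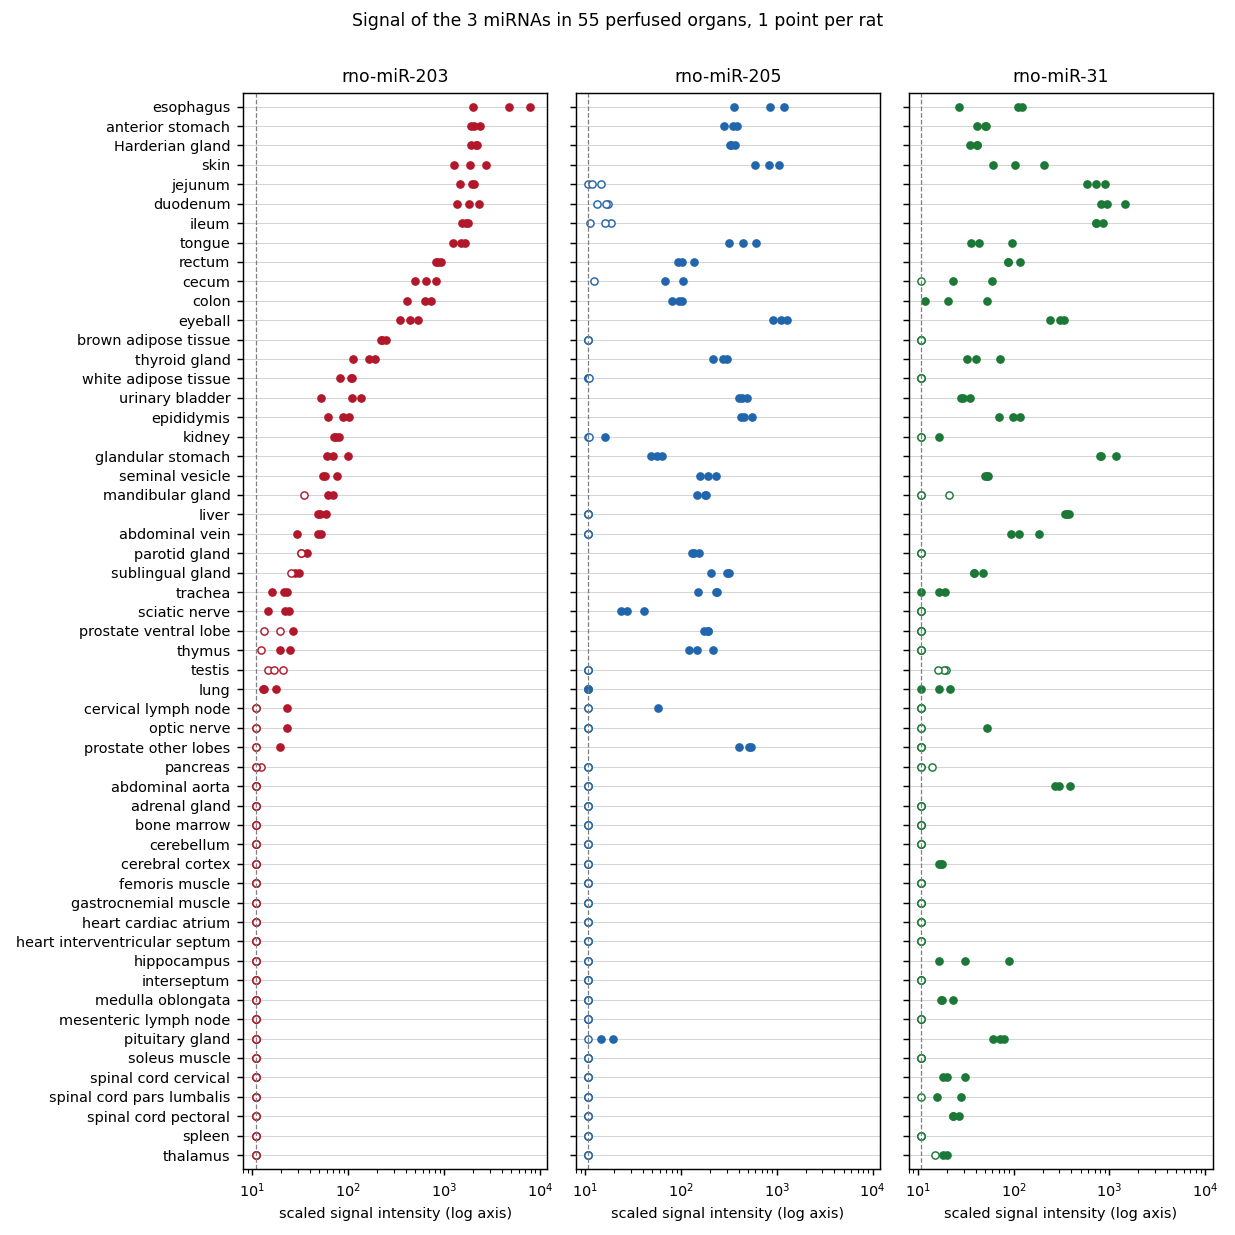
Scaled signal intensity of rno-miR-203, rno-miR-205 and rno-miR-31 (log axis, arbitrary units) in the 55 perfused organs, ordered by the mean of rno-miR-203, with 1 point per rat, open where the miRNA was not detected and with the floor of 10.8 as a dashed line. rno-miR-203 steps down after tongue, rno-miR-205 is at or near the floor in the small intestine, and rno-miR-31 is highest in duodenum, glandular stomach, ileum and jejunum.

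All 3 members were detected on all 3 arrays in 14 organs, which were the 4 squamous-lined organs, Harderian gland, eyeball, trachea, urinary bladder, thyroid gland, glandular stomach, colon, rectum, epididymis and seminal vesicle. None of them passed this mark in 17 organs, among them skeletal muscle, heart, spleen, bone marrow, pancreas and adrenal gland. miR-203 and miR-31 passed it without miR-205 in 6 organs, including duodenum, jejunum, ileum and liver. miR-205 alone passed it in 5 organs, namely mandibular and parotid gland, both parts of the prostate and thymus. miR-31 alone passed it in 7 organs, namely abdominal aorta, pituitary gland and 5 parts of the brain and spinal cord. A member that did not pass could still be present. miR-203 was detected on 2 mandibular, 1 parotid and 2 thymus arrays, and miR-205 on 2 pituitary and 2 lung arrays. The scaled signal needed for detection also differed between organs. miR-203 passed in lung at a mean log2 signal of 3.86 but not in mandibular gland at 5.73.

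Over the 55 organ means on the log2 scale, miR-203 and miR-205 correlated at 0.54 (Pearson) and 0.74 (Spearman), and miR-203 and miR-31 at 0.59 and 0.56. The values for miR-205 and miR-31 were lower, at 0.19 and 0.36. Many of these points lie at the floor for both miRNAs. Among organs where both were detected in every rat, Pearson's correlation was 0.52 over 15 organs for miR-203 with miR-205, 0.29 over 20 organs for miR-203 with miR-31 and -0.06 over 15 organs for miR-205 with miR-31. These correlations describe the organs, which came from the same 3 rats, and carry no test.

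**Figure D2:**
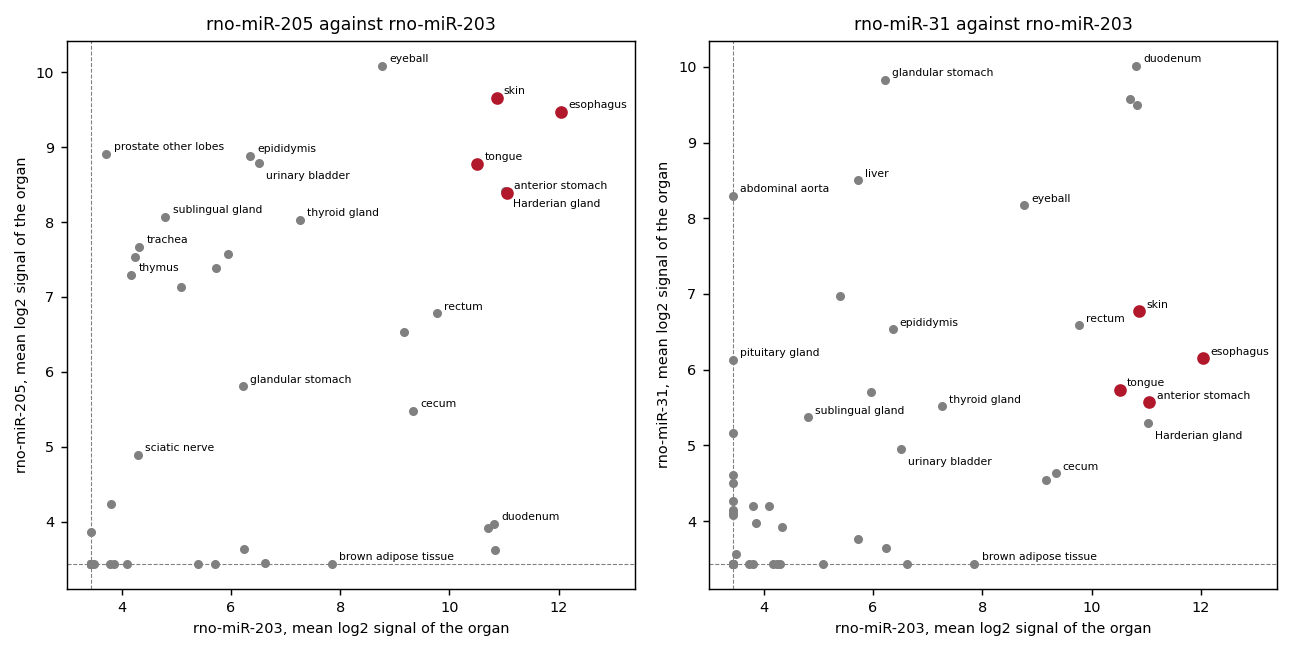
Mean log2 signal of each of the 55 perfused organs for rno-miR-205 (left) and rno-miR-31 (right) against rno-miR-203, with the squamous-lined organs in red and the floor as dashed lines. The squamous-lined organs and Harderian gland lie at the upper right on the left side, while on the right side duodenum and glandular stomach lie above them.

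The first comparison asked whether the mean of the 4 squamous-lined organs differed from that of the other organs sampled. Its SE and p-value rest on the spread between rats within an organ and not on the spread among organs. They therefore speak for these organs and not for squamous-lined organs as a class. The same limit holds for every mean over several organs below. Over the 4 organs, miR-203 exceeded the mean of the other 51 organs by 5.85 on the log2 scale (SE 0.09, limma adjusted p = 1.32e-93). Of the 345 miRNAs tested, it had the largest positive difference. miR-205 exceeded it by 4.15 (SE 0.11, limma adjusted p = 1.39e-68), the fifth largest. miR-31 exceeded it by 1.16 (SE 0.14, limma adjusted p = 2.75e-13) and ranked 18th. All 12 arrays of the squamous-lined organs detected each member, against 78, 62 and 82 of the other 153 arrays. With undetected arrays set to the lowest detected signal, the folds were at least 49.9, 14.6 and 1.86.

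In this comparison 86.1% of the miRNAs tested were called at an adjusted p under 0.05, 44 higher and 253 lower, with a median difference of -0.31, so being called is common and the size and rank of a difference say more. The value of miR-31 depended on how signals near the floor were treated: it was 0.087 with a floor 4 times as high and -0.021 with normexp background correction. miR-203 and miR-205 kept their call under every alternative tried. Markers of muscle moved with the members in this comparison: all 4 skeletal muscle miRNAs were higher in the squamous-lined organs, with a median of 4.48, and both smooth muscle miRNAs, with a median of 0.74. Skeletal muscle miRNAs summed to between 4825 and 32978 in skin, tongue and esophagus and between 971 and 1153 in anterior stomach. Their part in the differences of the members was not tested. For all 3 members the arrays of the squamous-lined organs overlapped in range with those of other organs.

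The organs were next taken one at a time, each against the mean of the same 41 reference organs, which leave out all 14 organs described here, so that these comparisons share their reference arrays. In skin, where 69.6% of miRNAs were called, miR-203 was higher by 5.65 (SE 0.18, limma adjusted p = 1.38e-58), miR-205 by 5.14 and miR-31 by 1.79 (SE 0.27, limma adjusted p = 3.88e-09). With normexp, miR-31 in skin was at 0.17 and not called. In tongue (72.5% called) the differences were 5.30, 4.26 and 0.76, and the direction of the last, that of miR-31, depended on the setting. It was -0.36 and called with the floor 4 times as high, and was not called at -0.21 with normexp, 0.15 with slide as a fixed term and 0.32 without rat 5. Esophagus (68.4% called) had the largest difference of miR-203 among the 14 organs, 6.83, beside 4.96 for miR-205 and 1.17 for miR-31. miR-31 in esophagus was not called at 0.78 without rat 6, 0.78 with slide as a fixed term or 0.20 with the floor 4 times as high, and was at 1.86 without rat 5. In anterior stomach (74.8% called) miR-203 was higher by 5.85 and miR-205 by 3.88. The difference of miR-31 there, 0.59 (limma adjusted p = 0.0424), lost its call when any 1 of the 3 rats was left out, and was -0.59 and called with the floor 4 times as high and -0.63 with normexp, so no direction is given. In each of these 4 organs miR-203 was among the 5 largest positive differences and miR-205 among the 7 largest.

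Trachea and urinary bladder, lined by respiratory epithelium and urothelium, were taken next. In trachea (71.9% called), miR-205 was higher than in the reference organs by 3.15 (SE 0.21, limma adjusted p = 2.21e-28). miR-203 was lower there by a log2 difference of -0.89 and miR-31 by -1.06, but neither was called with quantile normalization (-0.27 and -0.47) or with the floor 4 times as low (-0.19 and -0.37). In urinary bladder (72.8% called), miR-205 had the largest positive difference of all 345 miRNAs, 4.28 (SE 0.21, limma adjusted p = 1.84e-39). miR-203 was higher there by 1.31, but at 0.14 with the floor 4 times as high and -0.43 with normexp, neither called. miR-31 differed by -0.032 (limma adjusted p = 0.931), and its direction depended on the setting. It was called at 0.77, 0.91 and 0.74 with the percentile over all miRNAs, quantile normalization and the authors' table, and at -0.75 and -0.81 with the floor 4 times as high and normexp.

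Among the glands, miR-205 was the most widely raised. It was higher than in the reference organs by 3.56 in sublingual gland (69.3% called), 2.88 in mandibular gland (69.3% called) and 2.62 in parotid gland (77.4% called). In the same glands miR-203 differed by -0.41, 0.52 and -0.12. The first of these was not called without rat 4 or without rat 6 and was at 0.29 with the floor 4 times as low, the next not without rat 4 or without rat 5 (0.34), with normexp (0.073) or with all other organs as reference (0.038), and the last was not called in the fit reported (limma adjusted p = 0.534). The difference in mandibular gland also turned to -0.53 with a call with the floor 4 times as high and to -0.23 with slide as a fixed term, so no direction is given for it. Under 6 other settings miR-203 in parotid gland was called, with values between -0.94 and -0.55 in 5 of them and 1.26 with normexp. miR-31 was not detected on any array of mandibular or parotid gland, so its differences there, -1.22 and -1.54, are set by the floor. With normexp they were -0.17 (not called) and 1.31 (called), and no fold can be bounded in parotid gland. In sublingual gland miR-31 differed by 0.39 (limma adjusted p = 0.188), but was called at -0.70 with the floor 4 times as high and at 1.21 with the floor 4 times as low. In thyroid gland (64.3% called) miR-203 was higher by 2.05 and miR-205 by 3.52, the former at 0.54 and not called with normexp. miR-31 differed by 0.54 (limma adjusted p = 0.074), or 0.81 and called without rat 4, and was called at -0.50 with the floor 4 times as high. Skeletal muscle markers in that gland summed to 65 in rat 4, 11616 in rat 5 and 80 in rat 6, and their part in these values was not tested.

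The Harderian gland stood with the squamous-lined organs for miR-203 and miR-205. In that gland (66.4% called) miR-203 was higher than in the reference organs by 5.81 (SE 0.18, limma adjusted p = 3.17e-60), second among all miRNAs tested, and miR-205 by 3.90. miR-31 differed by 0.31 (limma adjusted p = 0.299), but was called at -0.75 with the floor 4 times as high and at 1.13 with the floor 4 times as low. Pancreas (85.5% called) and adrenal gland (70.4% called) had negative differences of all 3 members, -1.71 and -1.77 for miR-203, -1.08 and -1.08 for miR-205 and -1.42 and -1.54 for miR-31. No member was detected on any array of either organ, so these differences are set by the floor. Pancreas arrays also had the lowest percentiles before scaling, down to 68.0, and its differences changed sign under normexp, so no direction is given for pancreas. In pituitary gland (77.4% called) miR-31 differed by 1.15 (SE 0.27, limma adjusted p = 6.82e-05). It was not called at 0.35 in the authors' table, 0.31 with quantile normalization, 0.062 with the percentile over all miRNAs, -0.22 with normexp or -0.049 with the floor 4 times as high. miR-203 was not detected on any pituitary array, so its difference of -1.77 is set by the floor. miR-205 differed there by -0.66, or -0.44 and not called without rat 6 and 0.36 with the floor 4 times as low.

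**Figure D3:**
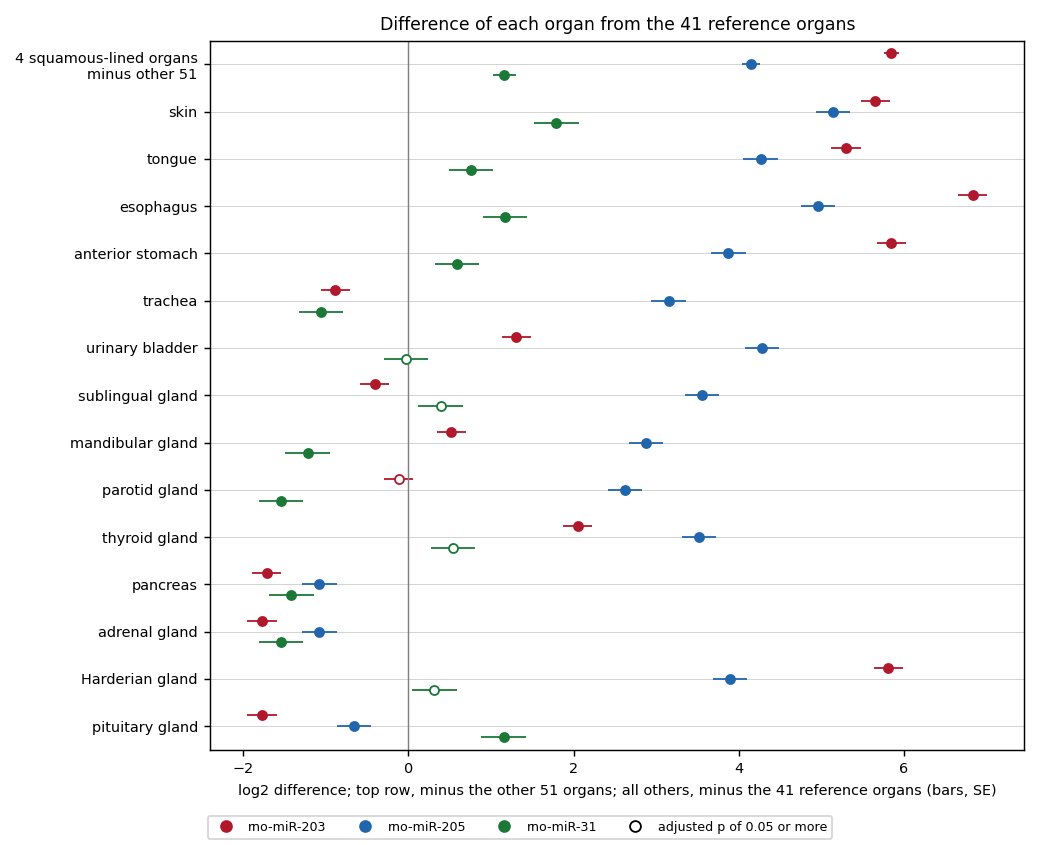
Log2 difference of rno-miR-203, rno-miR-205 and rno-miR-31 between each of 14 organs and the mean of 41 reference organs, and in the top row between the 4 squamous-lined organs and the other 51, with bars for the SE and open points where the adjusted p was 0.05 or more. rno-miR-205 lies right of 0 in all organs shown but pancreas, adrenal gland and pituitary gland, while rno-miR-203 is far right of 0 in the squamous-lined organs and Harderian gland.

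Related organs were then set against each other, although their tissue makeup often differed as well, as the marker miRNAs given below show. The first was between the 2 parts of the rat stomach, the squamous anterior stomach and the glandular stomach, where 43.8% of miRNAs were called. miR-203 was higher in anterior stomach by 4.84 (SE 0.25, limma adjusted p = 1.41e-37), a fold of 28.6, and miR-205 by 2.59 (SE 0.29, limma adjusted p = 4.93e-14), a fold of 6.00. miR-31 went the other way, with a log2 difference of -4.26 (SE 0.38, limma adjusted p = 1.31e-19), or 19.2-fold lower in anterior stomach. The groups did not overlap for any of the 3, and the arrays of each rat lay on 1 slide. Within the 3 slides the difference of miR-203 was 4.91, 4.28 and 5.32, that of miR-205 was 2.65, 2.13 and 2.98, and that of miR-31 was -4.00, -4.30 and -4.49. Among the differences of the 345 miRNAs, that of miR-203 was 4th and that of miR-205 8th from the top, and that of miR-31 was 8th from the bottom. The parts of the stomach also differed in other tissue: both smooth muscle miRNAs were higher in anterior stomach, summing to between 23340 and 29819 against 592 to 1035, and the 6 epithelial miRNAs were lower, summing to between 1018 and 1234 against 18064 to 26775. The part of these in the values of the members was not tested.

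Tongue and esophagus contain much skeletal muscle and were set against gastrocnemial muscle, in which no member was detected on any array. In tongue, where 30.1% were called, miR-203 was at least 84.6-fold higher (log2 difference 7.07, limma adjusted p = 2.04e-53). miR-205 was at least 25.5-fold higher there. For miR-31 the difference in tongue was 2.30, and it was not called at 0.16 with normexp, 0.39 with the floor 4 times as high or 1.65 with slide as a fixed term. In esophagus (40.0% called) miR-203 was at least 245-fold and miR-205 at least 41.2-fold higher. For miR-31 the difference in esophagus was 2.71, between 2.33 and 3.42 when 1 rat was left out, and it was 0.98 and not called with normexp. miR-203 had the largest positive difference of the 345 miRNAs in both comparisons. The 4 muscle miRNAs summed to between 31907 and 32978 in tongue, between 11836 and 32080 in esophagus and between 125576 and 158378 in gastrocnemial muscle. Of the epithelial list 5 of 6 were higher in tongue, with a median of 3.54, and all 6 in esophagus, with a median of 5.05. The part of these markers in the values of the members was not tested.

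In trachea against lung (26.7% called), miR-205 was at least 18.7-fold higher in trachea (log2 difference 4.23, SE 0.29, limma adjusted p = 9.34e-27). Lung values of miR-205 were at the floor in all 3 rats, 2 of which were called detected. Of the epithelial list 3 of 6 were higher in trachea, with a median of 0.74. Of the skeletal muscle list 1 of 4 was higher, and of the leukocyte list 1 of 3 was lower. The part of these markers in the difference of miR-205 was not tested. miR-203 differed by 0.46 (limma adjusted p = 0.208) and miR-31 by -0.058 (limma adjusted p = 1). With the percentile over all miRNAs the difference of miR-31 was -0.80 and called.

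Urinary bladder and anterior stomach share a thick smooth muscle coat, and miR-143 and miR-145 of smooth muscle summed highest in these 2 of the 55 organs. Only 12.8% of miRNAs were called between them. miR-203 was the miRNA with the lowest value of all 345 in bladder relative to anterior stomach, at -4.54 (SE 0.25, limma adjusted p = 2.22e-34), or 23.3-fold lower. miR-205 differed by 0.40 (limma adjusted p = 0.609) and miR-31 by -0.62 (limma adjusted p = 0.43). Neither of these passed the threshold, although the 3 values of each organ did not overlap. The other entry of the same miRNA, rno-miR-205_v15.0, went the opposite way, at -0.83 (SE 0.28, limma adjusted p = 0.0393), also without overlap, so the direction of miR-205 between these organs is not settled.

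Differences within the squamous-lined organs were smaller. Skin against the mean of tongue, esophagus and anterior stomach (24.1% called) differed by -0.34 for miR-203 (limma adjusted p = 0.28). With the percentile over all miRNAs this difference was -0.81 and called. miR-205 was higher in skin by 0.78 (limma adjusted p = 0.00833) and miR-31 by 0.95 (limma adjusted p = 0.0135). Both values overlapped with the other organs. That of miR-205 was not called without rat 5 or without rat 6, at 0.62 at the lowest, and that of miR-31 not without rat 4, at 0.56, or without rat 5. Neither was called with normexp (0.66 and 0.24), quantile normalization (0.54 and 0.67) or the percentile over all miRNAs (0.30 and 0.48). Esophagus exceeded anterior stomach (25.8% called) by 0.99 for miR-203 (SE 0.25, limma adjusted p = 0.000743) and by 1.08 for miR-205 (SE 0.29, limma adjusted p = 0.00172). Without rat 6 these were 0.62 and 0.80, and 0.56 and 0.66 by the authors' table, and neither was called. Of the epithelial list 3 of 6 were higher, with a median of 1.09, while all 4 skeletal muscle miRNAs were higher (median 4.95) and both smooth muscle miRNAs lower (median -4.49). Their part in the differences was not tested. Within the slides of rats 4 and 5 the difference of miR-203 was 1.18 and 0.06, and that of miR-205 was 1.26 and 0.34. miR-31 differed by 0.58 (limma adjusted p = 0.337), with 1.15 and -0.62 within these slides, and by 1.19 with a call when rat 5 was left out.

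Between the salivary glands as a group and pancreas (63.8% called), the fit gave a difference of 4.1 on the log2 scale for miR-205 (SE 0.24, limma adjusted p = 9.01e-34), 1.71 for miR-203 and 0.63 for miR-31 (limma adjusted p = 0.0675, or 0.82 and called without rat 4). No member was detected in pancreas, and after scaling the lowest detected signal of the pancreas arrays lay above the mean of the 3 salivary glands for each member, so that no fold can be bounded. With normexp the differences were -1.18, -2.13 and -2.30, and with the floor 4 times as high that of miR-203 was 0.13 and not called. No direction is therefore given. Between mandibular and parotid gland 36.8% of miRNAs were called, and all 4 skeletal muscle miRNAs were lower in mandibular gland, with a median of -4.08. They summed to between 54.9 and 95.5 there and to 12157, 6128 and 61.4 in the parotid glands of rats 4, 5 and 6, and their part in the values of the members was not tested. miR-203 differed by 0.64 (limma adjusted p = 0.0298), with overlap between the glands. It was not called without rat 4, without rat 5 (0.40), with the floor 4 times as high (0.40) or as low (0.64) or with no filter, and it was -1.19 and called with normexp, so no direction is given. Within the 3 slides it was 0.71, 1.12 and 0.09. miR-205 differed by 0.25 (limma adjusted p = 0.677) and miR-31 by 0.32 (limma adjusted p = 0.689).

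The Harderian gland parted from the salivary glands (40.9% called) chiefly in miR-203, which was at least 53.6-fold higher (log2 difference 5.82, SE 0.20, limma adjusted p = 4.74e-54) and had the largest positive difference of all miRNAs tested. miR-205 was higher by 0.88 (limma adjusted p = 0.00105) and miR-31 by 1.10 (limma adjusted p = 0.00159). Neither was called with normexp (0.21 and -0.39), and miR-31 was at -0.014 with the floor 4 times as high. The 6 epithelial miRNAs (miR-200a, miR-200b, miR-200c, miR-200c_v15.0, miR-141 and miR-429) did not follow, with 0 higher, 1 lower and a median of -0.19. Skeletal muscle markers in the Harderian gland summed to 3396, 1286 and 107 in rats 4, 5 and 6, and their part in the values of the members was not tested.

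Thymus was compared with spleen as a lymphoid organ with an epithelial stroma against one without. There (37.4% called) miR-205 was at least 13.9-fold higher in thymus (log2 difference 3.86, SE 0.29, limma adjusted p = 3.79e-24). All 6 epithelial miRNAs were higher as well, with a median of 3.49. miR-203 was detected on 2 of 3 thymus arrays and on no spleen array, where its values were at the floor. Its difference of 0.74 (limma adjusted p = 0.00978) is therefore set in part by the floor. It was not called without rat 4 or rat 5 (0.51 at the lowest), in the authors' table (0.28) or with normexp (0.66). Nor was it called with the percentile over all miRNAs (0.08), quantile normalization (0.49), slide as a fixed term (0.21) or the floor 4 times as high (0.00). miR-31 was not detected in either organ.

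Rectum, next to the squamous anal canal, was compared with colon, farther from it, both as scraped mucosa (27.2% called). miR-31 was 4.12-fold higher in rectum (log2 difference 2.04, SE 0.38, limma adjusted p = 2.35e-06), the largest positive difference of the 345 miRNAs. It was 2.70 without rat 5 and 1.62 at the lowest with 1 rat left out. Rectum measured 88.2, 87.5 and 115 and colon 11.8, 52.6 and 20.4, without overlap. Within the 2 slides that held both organs the difference was 2.90 and 2.50. miR-203 differed by 0.61 (limma adjusted p = 0.0554) and miR-205 by 0.25 (limma adjusted p = 0.823), and both were called when arrays were scaled by the percentile over all miRNAs (1.54 and 1.18). With normexp the difference of miR-31 was 0.47 and not called. None of the epithelial miRNAs was called, and the 2 smooth muscle and 3 leukocyte miRNAs were all lower in rectum. The smooth muscle miRNAs summed to between 176 and 373 in rectum, where miR-145 was not detected, and between 1678 and 3382 in colon. The leukocyte miRNAs summed to between 138 and 436 in rectum and between 1204 and 4013 in colon. Their part in the value of miR-31 was not tested.

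**Figure D4:**
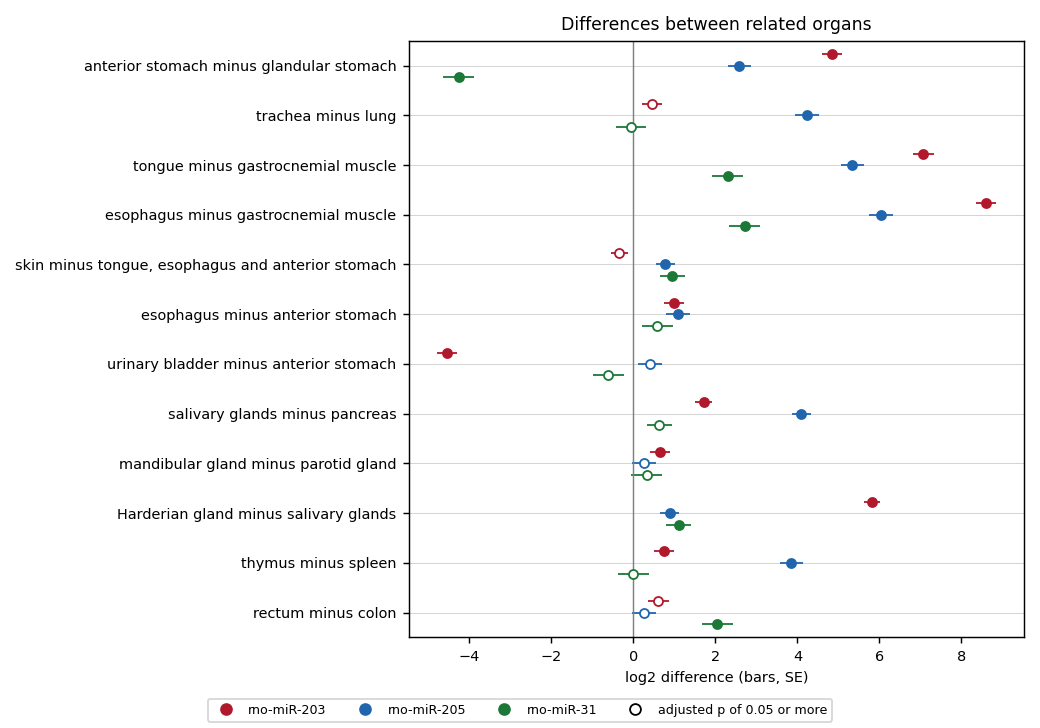
Log2 difference of rno-miR-203, rno-miR-205 and rno-miR-31 between related organs, with bars for the SE and open points where the adjusted p was 0.05 or more. rno-miR-203 and rno-miR-31 move in opposite directions between the 2 parts of the stomach, and rno-miR-205 alone is raised in trachea against lung.

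Among the organs in which a member was detected in every rat, its values varied most between rats in esophagus. The SD of log2 signal over the 3 rats was 1.00 for miR-203, 0.90 for miR-205 and 1.22 for miR-31, against medians of 0.27, 0.25 and 0.29 over the organs in which each was detected in every rat. Rat 5 had the lowest and rat 6 the highest value of each member. The 6 epithelial miRNAs in esophagus moved the same way, summing to 2609, 1117 and 5088 in rats 4, 5 and 6, and the muscle miRNAs to 28263, 32080 and 11836. In skin, miR-203 and miR-205 were lowest in rat 4 and highest in rat 6, whereas miR-31 was highest in rat 4 and lowest in rat 6. The epithelial miRNAs in skin summed to 1183, 1659 and 2186 and the muscle miRNAs to 18131, 6296 and 4825. Of the 4 muscle miRNAs, all were detected on every array of skin and 3 on every array of esophagus. In rat 4's cervical lymph node, where miR-205 was detected, the epithelial miRNAs summed to 5146, against 97 in each of rats 5 and 6. The part of such differences in tissue makeup in the values of the members was not tested.

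The same hairpins were also read by other probes. rno-miR-203*, the partner strand of miR-203, was not detected on any of the 180 arrays. rno-miR-205_v15.0, an earlier version of the miR-205 entry, correlated with rno-miR-205 at 0.99 over the 55 organ means and was detected in every rat in 25 organs. Its own order differed in that esophagus was first, at 2112, 993 and 3123, and eyeball came after skin. It exceeded the other 51 organs by 5.11 in the squamous-lined organs (SE 0.10) and glandular stomach by 3.46 in anterior stomach (SE 0.28). The log2 ratio of the 2 versions on the same array, given relative to the median of 21 organs, was 0.88 ± 0.04 in anterior stomach, 0.81 ± 0.19 in tongue, 0.80 ± 0.08 in esophagus and 0.63 ± 0.08 in Harderian gland (SD, n = 3). It was 0.31 ± 0.16 in skin, -0.35 ± 0.10 in urinary bladder and -0.40 ± 0.10 in eyeball. The rats of the first 4 organs therefore lay apart from those of bladder and eyeball, a description with no test.

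rno-miR-31*, the partner strand of miR-31, correlated with rno-miR-31 at 0.90 over the organ means. It was detected in every rat in 10 organs, led by duodenum (429, 265 and 263), ileum (280, 228 and 336) and jejunum (339, 283 and 219). It was at least 17.6-fold lower in anterior stomach, where its values were at the floor, than in glandular stomach. In rectum it was at least 2.34-fold higher than in colon, where it was not detected, but this was not called with normexp (-0.044) or with the floor 4 times as high (0.012). It differed by -0.06 in the squamous-lined organs (limma adjusted p = 0.407), and its direction there depended on the setting. It was called at 0.28 with quantile normalization and 0.82 with the floor 4 times as low. It was also called at -0.24 with the floor 4 times as high and -0.20 against the reference organs. Relative to miR-31 on the same array, its log2 ratio was 0.61 ± 0.02 in jejunum and 0.54 ± 0.18 in ileum, but -0.73 ± 0.07 in abdominal vein and -0.96 ± 0.46 in abdominal aorta (SD, n = 3).

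**Figure D5:**
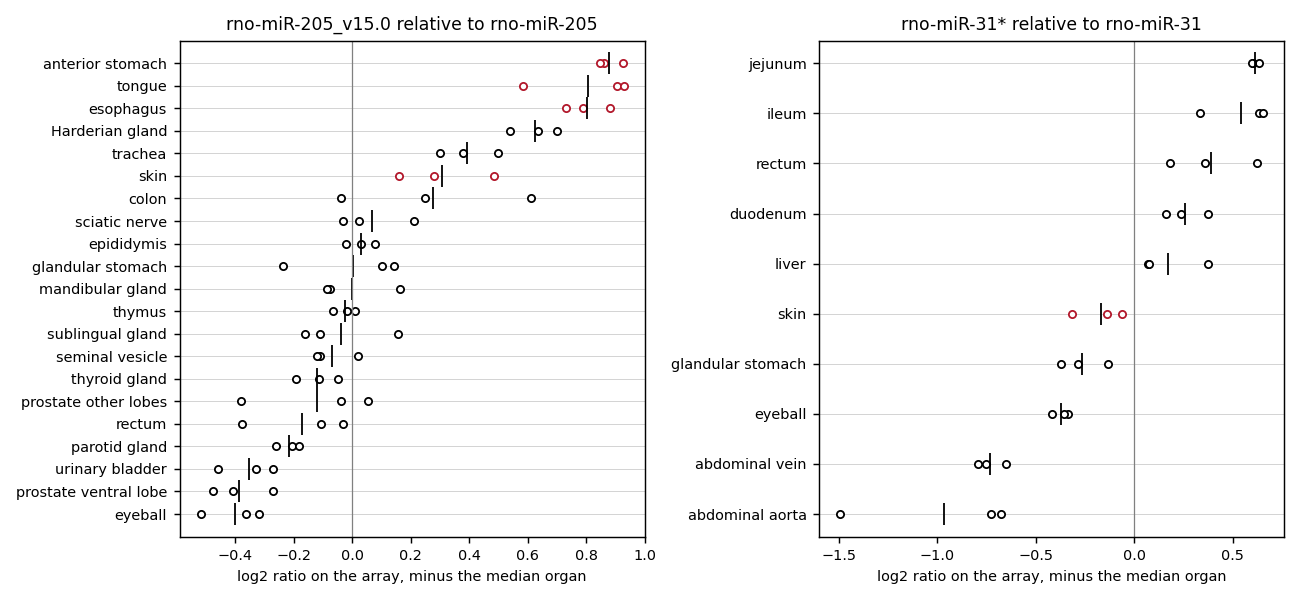
Log2 ratio of rno-miR-205_v15.0 to rno-miR-205 in 21 organs (left) and of rno-miR-31* to rno-miR-31 in 10 organs (right), each minus the median organ, with 1 point per rat, a line at the mean and the squamous-lined organs in red. Anterior stomach, tongue and esophagus are highest on the left side, and jejunum is highest and abdominal aorta lowest on the right side.

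Other miRNAs were ranked by how closely their organ means followed each member over the 55 organs, leaving out the same hairpin. Closest to miR-203 were miR-205_v15.0 (Pearson 0.61), miR-429 (0.59), miR-200b (0.59), miR-31 (0.59) and miR-215_v15.0 (0.58). Closest to miR-205 were miR-96 (0.66), miR-200c_v15.0 (0.64), miR-200b (0.64), miR-200a (0.61) and miR-429 (0.61). All of these but miR-96 belong to the epithelial list. miR-96 is known from sensory cells, but here it was detected on all 3 arrays of 33 organs. Its highest organs were eyeball, ventral prostate, Harderian gland and the other lobes of the prostate. Closest to miR-31 were miR-802_v15.0 (0.64), miR-194 (0.61), miR-192* (0.60), miR-192 (0.59) and miR-203 (0.59), and miR-192 and miR-194 are abundant in intestinal epithelium. The highest of these Pearson correlations was 0.66. Spearman's correlation was 0.77 for miR-205_v15.0 with miR-203 and 0.76 for miR-96 with miR-205. By Spearman's correlation 3, 3 and 2 of the miRNAs named stayed among the closest 5.

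The epithelial list, known to be shared by simple and stratified epithelia, parted from miR-203 and miR-205 in some comparisons. In the squamous-lined organs 5 of its 6 miRNAs were higher and 1 lower than in the other 51 organs, where 86.1% of all miRNAs were called. The median difference was 0.76 against -0.31 over all miRNAs. In anterior against glandular stomach all 6 were lower, with a median of -4.45. miR-203 and miR-205 were higher there, while miR-31 went with the list at -4.26. All 6 were higher than in the reference organs in trachea, thyroid gland, Harderian gland, pituitary gland and the 3 salivary glands. In these organs 64.3% to 77.4% of all miRNAs were called. Pituitary gland thus carried the listed miRNAs while miR-203 was not detected there. The fit also gave all 6 as higher in pancreas (85.5% called). No direction is given for pancreas, whose arrays had the lowest percentiles before scaling. The list was not followed under the other settings. Of 10 miRNAs studied in skin, 4 were higher and 4 lower in skin than in the reference organs, with a median of -0.015, where 69.6% of all miRNAs were called with a median of -0.26, so their share called was near that of all miRNAs. miR-184 of that list was not detected in skin and measured 10066, 9822 and 13672 in eyeball.

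Perfusion was compared within the 5 organs sampled both ways. No member was called in any of them (limma adjusted p = 1 throughout), with 0.290% of all miRNAs called in cardiac atrium, interventricular septum and kidney each, 0.580% in liver and 0 in lung, where limma gave 3 at an unadjusted p under 0.05. The largest differences of a member were those of miR-31 in lung, -0.72 (limma adjusted p = 1), and in kidney, -0.59 (limma adjusted p = 1), which were 3rd and 2nd from the bottom of the 345 miRNAs in these organs. In lung miR-31 measured 21.8, 10.8 and 16.6 in perfused rats and 21.1, 29.2 and 28.3 in rats that were not perfused, with overlap. With any 1 rat of either set left out, the lung difference was between -0.95 and -0.45 and the kidney difference between -0.98 and -0.07. In kidney miR-31 was detected on 1 of 3 perfused arrays and on 2 of 3 arrays without perfusion. With normexp 237 of the 345 miRNAs were called in kidney. Among them were miR-31 at -0.98 and miR-205 at -0.92. miR-31 in liver measured 363, 346 and 377 in perfused rats and 283, 428 and 371 in rats that were not perfused. miR-203 in kidney measured 80.8, 74.5 and 70.6 against 73.9, 63.5 and 74.6. An interaction of sampling condition and organ was not called for any member either (limma adjusted p = 1).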

How the data were processed

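RNA was extracted by the authors with the miRNeasy kit and hybridized, labeled with Cy3, to a custom Agilent rat miRNA array (1 color). The authors deposited scanner files, made with Agilent Feature Extraction 10.7.3 per the labels, which hold signal intensity per spot and other values such as flags for outlier spots and spots well above background. They also deposited a table of intensities normalized in Genedata Expressionist by the 75th percentile, used here as an alternative after a factor of 1.88 brought it to the same scale. Processed signals of each miRNA were averaged over spots that were not outliers (14340 miRNA spots per array, of which 1.63% to 6.42% were outliers). For scaling, the 75th percentile was taken over 37 miRNAs, those detected on every one of the 180 arrays, and values were floored at 10.8 and taken to log2. These percentiles ranged from 68.0 to 6343 before scaling to 2118. The floor is the median over arrays of the lowest signal of any detected miRNA, and folds of low miRNAs are understated by it. A miRNA was tested if detected on all 3 arrays of any of the 60 groups, which kept 345 of 717. limma 3.58.1 in R 4.3.3 was fitted over all 180 arrays, with 60 group terms, and p-values were adjusted by Benjamini-Hochberg over the 345 miRNAs for each of 32 comparisons. A bound of a fold used the lowest detected signal of each array. The fit was tested on simulated data first. Tables and figures were made with Python 3.11.15.

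The members and lists were chosen with earlier results of these data known. The miRNAs named are the members, the other probes of their hairpins, the 5 most alike to each by Pearson correlation, and the listed markers. miR-184, the summed markers of single organs and the cervical lymph node of rat 4 were singled out after their values were seen.

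The same rat number marks the same animal across organs, so the numbers pair the samples. Residuals correlated at 0.05 on average between arrays of the same rat and -0.02 between different rats. In the fit with the replicate block, miR-203, miR-205 and miR-31 in squamous-lined organs differed from other organs by 5.85, 4.15 and 1.16, and no call of a member changed. On 8 arrays the labels gave different rat numbers in 2 fields; the number in the title was used, with these arrays left out as an alternative. The arrays lay on 23 slides scanned on 3 days. The normexp alternative (offset 50) used median spot signals and local background in place of mean spot signals, which the scanner files did not hold. In all, 25 alternative settings were fitted, and 2 more added after seeing the data. No column was left unmatched.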

Additional observations from a re-analysis of the deposited data

How the results depend on the processing

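Of the 96 differences of the members tested, all that were refitted kept their side of the threshold when spots were summarized by the median, when slide was a random block and when the added left-out array or organ was dropped, and the replicate block changed no call (5.85, 4.15 and 1.16 for miR-203, miR-205 and miR-31 in the squamous-lined organs). miR-203 and miR-205 in the squamous-lined organs ranged from 3.74 to 6.48 and from 1.98 to 5.11 over the alternatives, all called. In what follows, an organ alone stands for its log2 difference from the reference organs, and the cause of a change was not tested unless given.

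With normexp, whose offset is enlarged by scaling on arrays with low percentiles such as those of pancreas, miR-31 changed sign in the squamous-lined organs (-0.021), tongue (-0.21), anterior stomach (-0.63), parotid gland (1.31), pancreas (2.58), pituitary gland (-0.22), salivary glands minus pancreas (-2.30), mandibular minus parotid gland (-1.47) and Harderian gland minus salivary glands (-0.39). miR-203 changed sign in urinary bladder (-0.43), parotid gland (1.26), pancreas (2.38), salivary glands minus pancreas (-2.13) and mandibular minus parotid gland (-1.19). miR-205 did so in pancreas (2.68), salivary glands minus pancreas (-1.18) and mandibular minus parotid gland (-0.92), and miR-31* in rectum minus colon (-0.044). Calls were lost for miR-31 in skin (0.17), mandibular gland (-0.17), tongue and esophagus minus gastrocnemial muscle (0.16 and 0.98), skin minus the other squamous-lined organs (0.24) and rectum minus colon (0.47). They were lost for miR-203 in mandibular gland (0.073), thyroid gland (0.54) and thymus minus spleen (0.66), and for miR-205 in skin minus the other squamous-lined organs (0.66) and Harderian gland minus salivary glands (0.21). Calls were gained for miR-31 in urinary bladder (-0.81), esophagus minus anterior stomach (1.25) and perfused minus not perfused kidney (-0.98), and for miR-205 in the last (-0.92).

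With the floor 4 times as high, low signals merge with the floor. miR-31 then changed sign in tongue (-0.36), anterior stomach (-0.59), sublingual gland (-0.70), thyroid gland (-0.50), Harderian gland (-0.75), pituitary gland (-0.049) and Harderian gland minus salivary glands (-0.014), miR-203 in mandibular gland (-0.53), and differences went to 0.00 for miR-203 in thymus minus spleen and for miR-31* in esophagus minus anterior stomach. Calls were lost for miR-31 in the squamous-lined organs (0.087), esophagus (0.20) and tongue minus gastrocnemial muscle (0.39), and for miR-203 in urinary bladder (0.14), salivary glands minus pancreas (0.13) and mandibular minus parotid gland (0.40). They were gained for miR-31 in urinary bladder (-0.75) and esophagus minus anterior stomach (0.79) and for miR-203 in parotid gland (-0.94) and rectum minus colon (0.61). With the floor 4 times as low, signs changed for miR-31* in the squamous-lined organs (0.82), miR-203 in sublingual gland (0.29) and miR-205 in pituitary gland (0.36). Calls were lost for miR-203 and miR-31 in trachea (-0.19 and -0.37), miR-203 in esophagus minus anterior stomach (0.99) and mandibular minus parotid gland (0.64), and miR-31 and miR-205 in skin minus the other squamous-lined organs (0.95 and 0.78). They were gained for miR-31 in sublingual gland (1.21), thyroid gland (1.35), Harderian gland (1.13) and salivary glands minus pancreas (1.56).

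With quantile normalization, signs changed for miR-31* in the squamous-lined organs (0.28), miR-31 in urinary bladder (0.91) and miR-205_v15.0 in rectum minus colon (0.78). Calls were lost for miR-203 and miR-31 in trachea (-0.27 and -0.47), miR-203 in thymus minus spleen (0.49), miR-31 in pituitary gland (0.31), and miR-31 and miR-205 in skin minus the other squamous-lined organs (0.67 and 0.54). They were gained for miR-31 in thyroid gland (0.93), Harderian gland (0.65) and salivary glands minus pancreas (0.67), and for miR-203 and miR-205 in rectum minus colon (0.99 and 1.16). With the percentile over all miRNAs, miR-31 in urinary bladder became 0.77. Calls were lost for miR-203 in mandibular gland (0.17) and thymus minus spleen (0.079), miR-203 and miR-205 in esophagus minus anterior stomach (0.54 and 0.63), miR-31 in pituitary gland (0.062), and miR-31 and miR-205 in skin minus the other squamous-lined organs (0.48 and 0.30). They were gained for miR-203 in parotid gland (-0.76) and skin minus the other squamous-lined organs (-0.81), miR-203 and miR-205 in rectum minus colon (1.54 and 1.18), and miR-31 in thyroid gland (1.23) and trachea minus lung (-0.80). In the authors' table, miR-31 in urinary bladder was 0.74 and miR-205_v15.0 in rectum minus colon 0.72. Calls were gained there for miR-203 in parotid gland (-0.55), miR-203 and miR-205 in rectum minus colon (1.52 and 1.16), miR-31 in thyroid gland (0.71), Harderian gland (0.54) and salivary glands minus pancreas (0.61), and miR-205 in mandibular minus parotid gland (0.65). They were lost for miR-31 in pituitary gland (0.35), miR-203 and miR-205 in esophagus minus anterior stomach (0.56 and 0.66) and miR-203 in thymus minus spleen (0.28).

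With slide as a fixed term, calls were lost for miR-31 in tongue (0.15), esophagus (0.78), anterior stomach (0.32), tongue minus gastrocnemial muscle (1.65) and skin minus the other squamous-lined organs (0.97), miR-205 in pituitary gland (-0.61) and miR-203 in thymus minus spleen (0.21). miR-203 in mandibular gland changed sign (-0.23) and in parotid gland was called (-0.87). With outlier spots kept, miR-31 in anterior stomach was 0.58 and not called. Without a filter it was 0.59 and not called, nor were miR-203 in sublingual gland (-0.41) and mandibular minus parotid gland (0.64). With total gene signals, miR-203 in sublingual gland was -0.29 and not called, and miR-31 was called in thyroid gland (0.65) and salivary glands minus pancreas (0.78). With all other organs as reference, miR-203 in mandibular gland was 0.038 and not called, and in parotid gland -0.62 and called. The partner strand miR-31* was called in the squamous-lined organs with the floor 4 times as high (-0.24) and against the reference organs (-0.20). In esophagus minus anterior stomach it was not called with the percentile over all miRNAs (0.41), quantile normalization (0.043) or the floor 4 times as low (0.53), and in rectum minus colon not with the floor 4 times as high (0.012). miR-203 in rectum minus colon, 0.61, was called with a filter at 50% of arrays and with arrays of rats not perfused counted in.

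Leaving out 1 rat at a time gave these ranges where a call changed. miR-203 ranged from 0.62 to 1.45 in esophagus minus anterior stomach, 0.40 to 0.92 in mandibular minus parotid gland, 0.34 to 0.79 in mandibular gland, -0.46 to -0.38 in sublingual gland and 0.51 to 1.01 in thymus minus spleen. miR-205 ranged from 0.80 to 1.45 in esophagus minus anterior stomach, -0.87 to -0.44 in pituitary gland and 0.62 to 1.05 in skin minus the other squamous-lined organs. miR-31 ranged from 0.52 to 0.68 in anterior stomach, 0.26 to 1.19 in esophagus minus anterior stomach, 0.78 to 1.86 in esophagus, 0.47 to 0.82 in salivary glands minus pancreas, 0.56 to 1.42 in skin minus the other squamous-lined organs, 0.19 to 0.81 in thyroid gland and 0.32 to 1.03 in tongue.

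The number of miRNAs called moved by more than 1.5 times under some settings. With normexp it went from 297 to 140 in the squamous-lined organs, 240 to 116 in skin, 250 to 81 in tongue, 258 to 128 in anterior stomach, 248 to 125 in trachea, 251 to 127 in urinary bladder, 239 to 87 in sublingual, 239 to 49 in mandibular, 222 to 47 in thyroid, 243 to 115 in adrenal, 229 to 65 in Harderian and 267 to 124 in pituitary gland. Between related organs it went from 92 to 33 for trachea and lung. Against gastrocnemial muscle it went from 104 to 38 for tongue and 138 to 46 for esophagus. It went from 83 to 29 for skin against the other squamous-lined organs. Against anterior stomach it went from 89 to 312 for esophagus and 44 to 8 for urinary bladder. It went from 220 to 336 for salivary glands and pancreas and 127 to 316 for mandibular and parotid gland. For thymus and spleen it went from 129 to 85, and for rectum and colon from 94 to 44. In kidney it went from 1 to 237 and in liver from 2 to 0 between perfused and not perfused rats. A filter at 50% of arrays, which tests fewer miRNAs, gave 118 in the squamous-lined organs, between 85 and 123 for each of the 14 organs, where 222 to 295 were called otherwise, 89 of 138 for esophagus and gastrocnemial muscle, 104 of 220 for salivary glands and pancreas, 62 of 127 for mandibular and parotid gland, 79 of 141 for Harderian and salivary glands and 0 of 2 for liver. The floor 4 times as high gave 100 of 151 for the parts of the stomach and 51 of 83 for skin against the other squamous-lined organs. Against anterior stomach it gave 57 of 89 for esophagus and 29 of 44 for urinary bladder. For mandibular and parotid gland it gave 79 of 127. Slide as a fixed term gave 156 of 239 in mandibular gland, the percentile over all miRNAs 144 instead of 92 for trachea and lung, no filter 341 instead of 220 for salivary glands and pancreas, and the fit without rat 5 gave 27 instead of 44 for urinary bladder and anterior stomach. For perfusion, where 0 to 2 were called in each organ, the other settings and left-out rats gave 0 to 6.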
